A study of Mus musculus with 8 samples.

Results

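The 54 genes described here are nuclear-encoded subunits of the mitochondrial respiratory chain and of ATP synthase. They were taken by name from a list of 20 subunits of complex I, 4 of complex II, 7 of complex III, cytochrome c (Cycs), 11 of complex IV (Ndufa4, an accessory subunit of that complex, included) and 11 of complex V. All 54 were found among the 37417 genes of the deposited table, and membership rests on the gene name alone. RNA came from epididymal white fat, the visceral pad beside the epididymis, of male C57Bl/6 mice fed chow. The 4 knockout (KO) mice carried the genotype given as Adiponectin-Cre ERT2-Atg3 flox/flox, and the 4 control mice were labelled WT. Cre ERT2 is a recombinase that tamoxifen switches on, and the adiponectin promoter drives it in adipocytes, so cells of other types in the pad are expected to keep Atg3. The labels say that the mice, with no exception named, were treated with tamoxifen; the sources used here give neither their age nor whether the WT mice carried Cre or floxed alleles.

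Electrons enter the respiratory chain at complex I from NADH and at complex II from succinate, pass through complex III and the small carrier cytochrome c, and reach oxygen at complex IV. Complexes I, III and IV pump protons, and complex V, ATP synthase, uses the proton gradient to make ATP. Apart from complex II, each complex joins subunits made from nuclear genes with a few made from the mitochondrial genome, so both sets of transcripts are needed. White adipocytes hold few mitochondria beside brown ones, and Atg3 encodes an enzyme that attaches LC3 to the autophagosome membrane, a step in autophagy, by which mitochondria can also be taken up for degradation.

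Levels within a gene are given as CPM, read counts scaled to library size (TMM), and levels between genes as the deposited FPKM, which is also scaled to exonic length. Libraries held 10986375 to 21688464 counts. Atg3 was lower in KO, at 50.2 ± 4.34 CPM in WT and 30.3 ± 1.84 in KO (SD, n = 4), with no overlap, a log2 fold change (log2FC, KO against WT) of -0.73 and an adjusted p of 0.0168 in edgeR's quasi-likelihood test. This call was lost in several alternatives (adjusted p = 0.0989 without KO libraries 2 and 3). Adipoq, the adipocyte marker that names the Cre driver, was at 3083 ± 683 CPM in WT and 2253 ± 92.7 in KO (SD, n = 4), so adipocyte RNA was present in the pads. Summed over 10 adipocyte markers the level was 32587 to 39872 CPM in WT and 27858 to 32426 in KO, with every KO sum below every WT sum. The brown fat marker Ucp1 had 26 reads in all 8 libraries together. Summed over 8 brown fat markers, Ucp1 included, the level was 31.3 to 36.3 CPM in WT and 23.6 to 28.2 in KO, again without overlap. Only 5 of these 8 genes had enough reads to be tested, 2 with a positive and 3 with a negative log2FC, so the sum does not describe each gene. Summed markers of duct epithelium (15 genes) were at 15.7 to 32.1 CPM in WT and at 46.1, 529, 539 and 51.7 CPM in KO libraries 1 to 4. In RNA of a whole pad, fewer cells of a type and less RNA per cell cannot be told apart.

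Promoters were available for 42 of the 54 genes, as 46 stretches from 250 bases before to 50 bases after a RefSeq start (build GRCm38.p6, the patched form of mm10). Letters known as binding motifs of respiratory gene regulators were counted in them on both strands. The letters GCGCANGC, bound by nuclear respiratory factor 1 (NRF1), stood in 16 of the 46 (34.8%), against 9.95% of all 32851 promoters in the table. CCGGAAG, bound by ETS factors such as GABP, stood in 26.1%, against 8.86% of all. AAGATGGC (YY1) stood in 10.9% against 2.75% and TCAAGGTC (estrogen-related receptors) in 6.52% against 1.05%. The general promoter letters CCAAT were about as frequent as elsewhere, at 39.1% against 37.4%. Median GC content was 57.2% in these promoters and 52.7% in all, and its part in the difference was not tested. A match of letters is not a bound site.

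Stretches upstream of the start are shown for Sdha, Sdhb and Cox6a1 as examples that carry these letters. For Atp5j the start shown is the one beside the start of Gabpa, which encodes a subunit of GABP itself. The promoter of a further Atp5j start (chr16:84835576-84835875) holds none of the NRF1, ETS or YY1 letters and is not shown. The stretches are written 5′ to 3′ on the strand of the gene, with the NRF1 and ETS letters (either strand) in capitals. Sdha is at chr13:74350241-74350490 (minus strand), Sdhb at chr4:140961021-140961270 (plus), Cox6a1 at chr5:115348959-115349208 (minus), and the 147 bases between the starts of Atp5j and Gabpa at chr16:84834977-84835123 (minus).
Sdha: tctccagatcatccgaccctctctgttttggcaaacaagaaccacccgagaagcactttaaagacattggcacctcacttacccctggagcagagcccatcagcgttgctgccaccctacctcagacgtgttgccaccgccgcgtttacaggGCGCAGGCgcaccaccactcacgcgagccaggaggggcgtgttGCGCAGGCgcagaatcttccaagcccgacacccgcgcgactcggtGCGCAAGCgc
Sdhb: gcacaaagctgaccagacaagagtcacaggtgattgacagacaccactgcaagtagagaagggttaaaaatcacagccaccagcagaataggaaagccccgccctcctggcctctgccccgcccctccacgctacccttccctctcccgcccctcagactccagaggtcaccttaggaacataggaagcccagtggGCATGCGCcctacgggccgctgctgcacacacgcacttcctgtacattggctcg
Cox6a1: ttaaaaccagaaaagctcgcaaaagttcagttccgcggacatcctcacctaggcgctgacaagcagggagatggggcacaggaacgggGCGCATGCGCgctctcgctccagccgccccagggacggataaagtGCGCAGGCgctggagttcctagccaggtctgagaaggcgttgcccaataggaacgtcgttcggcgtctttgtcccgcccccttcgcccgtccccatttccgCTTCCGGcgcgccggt
Atp5j: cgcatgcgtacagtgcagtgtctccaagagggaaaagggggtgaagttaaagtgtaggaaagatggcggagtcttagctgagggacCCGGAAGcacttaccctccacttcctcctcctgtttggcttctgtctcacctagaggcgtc
Sdha holds the NRF1 letters at 3 places, Sdhb at 1 place, and Cox6a1 holds NRF1 letters, which overlap their own reverse complement at the first place, and the ETS letters nearest to its start. The stretch between Atp5j and Gabpa holds the ETS letters and, in lower case, AAGATGGC.

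No subunit gene passed the test for a difference between the genotypes. Of the 54 genes, 53 had enough reads to be tested, and 0 were called higher or lower in KO at an adjusted p of 0.05 by edgeR. Over all 14800 genes tested, 60 were called (0.405%), 41 higher (0.277%) and 19 lower (0.128%), and beside that share a count of 0 among 53 says little about the subunit genes. At an unadjusted p under 0.05 the count was also 0 of 53. Of all genes tested 16.2% passed that bound, 8.52% higher and 7.66% lower in KO. DESeq2 and limma-voom called 0 subunit genes as well, where they called 810 and 45 of all 14800 genes. In all 54 genes the KO libraries overlapped the WT libraries, while over all tested genes 4.32% had every KO library above every WT library and 4.54% had every one below.

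The fold changes were small in both directions. Of the 53 genes, 26 had a positive and 27 a negative log2FC, and the median was -0.0050, beside -0.013 for all genes tested. The lowest was -0.26 (Cox7c) and the highest 0.19 (Atp5g1), and 36 genes lay within 0.1 of zero. The 95% interval of the difference lay within 1.5-fold either way for 50 of the 53, the exceptions being Cycs, Cox7c and Atp5g1, the 3 tested genes with the fewest reads. It lay within 1.25-fold for 29. Of the 50 subunit genes at 10 FPKM or more, all 50 had an interval within 1.5-fold, as did 78.3% of the 5661 tested genes at that level. The median standard error was 0.104 for the subunit genes and 0.108 for all 5661 genes, the subunit genes included. The data thus bound most differences below 1.5-fold, and they do not show that the levels were equal.

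**Figure D1:**
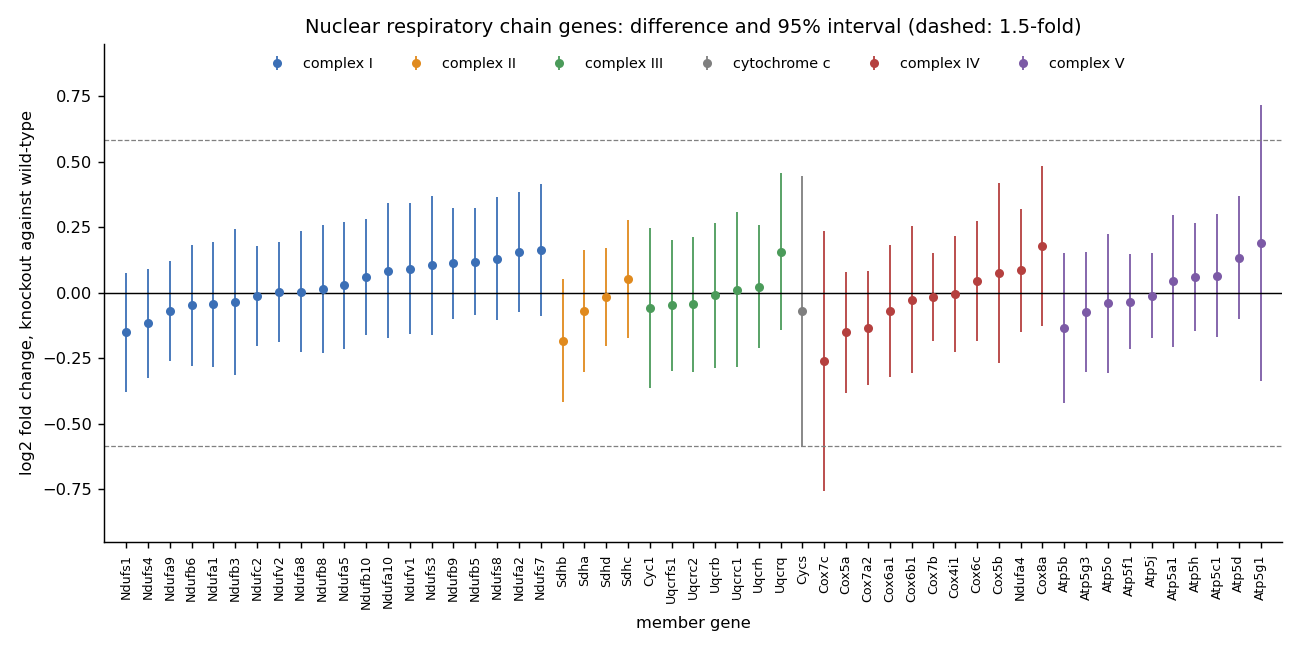
Log2 fold change of each of the 53 tested genes, KO against WT, with its 95% interval as a vertical line, grouped by complex in colour and ordered by fold change within a complex; dashed lines mark 1.5-fold. Every interval spans 0, and the intervals of Cycs, Cox7c and Atp5g1 pass a dashed line.

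Complex I takes electrons from NADH through a flavin and a chain of iron-sulfur clusters. Its 20 genes had a median log2FC of 0.02, with 13 positive and 7 negative values between -0.15 and 0.16. Ndufs7, which carries the last iron-sulfur cluster before ubiquinone (chr10:80249121-80256794, mm10), was at 68.5, 55.9, 76.0 and 79.2 CPM in WT and 71.9, 83.0, 82.2 and 76.0 in KO. Its log2FC of 0.16 (standard error 0.11, 95% interval -0.09 to 0.42) had an adjusted p of 0.515, and WT library 2 was the low value. Ndufs1, the largest iron-sulfur subunit (chr1:63143596-63176822), was at 128, 132, 160 and 144 CPM in WT and 138, 135, 110 and 126 in KO, and its log2FC of -0.15 (-0.38 to 0.08) was the lowest of the complex. Only KO libraries 3 and 4 lay below the WT range. Ndufa2, an accessory subunit, was at 63.6, 60.7, 81.9 and 71.3 CPM in WT and 71.5, 75.8, 81.3 and 80.3 in KO (log2FC 0.16, -0.07 to 0.39). WT library 3 was above every KO library, and without it Ndufa2 had a log2FC of 0.25 and an unadjusted p of 0.0200 (adjusted 0.229).

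The complex I transcript with the highest deposited FPKM was Ndufb9, an accessory subunit of the membrane arm (chr15:58933810-58939489), with a mean of 237 over the 8 libraries. With the length of the principal transcript in place of the file's exonic length it was at 219 and Ndufb8 was above it, at 269. It was at 132, 138, 167 and 156 CPM in WT and 158, 175, 150 and 159 in KO, and its log2FC was 0.11 (-0.10 to 0.32). The remaining complex I genes had log2FC values from -0.12 (Ndufs4, an assembly-critical accessory subunit) to 0.13 (Ndufs8, which carries a pair of iron-sulfur clusters). The flavin-binding subunit Ndufv1 stood at 0.09 and its partner Ndufv2 at 0.00. In level the complex ranged from 21.02 FPKM (Ndufs3) to that of Ndufb9, with a median of 63.2.

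Complex II, succinate dehydrogenase, is also an enzyme of the citric acid cycle and is made from nuclear genes alone. Its 4 genes had a median log2FC of -0.04, and 3 of the 4 values were negative. Sdhb, the iron-sulfur subunit (chr4:140961203-140979193), was at 125, 122, 159 and 148 CPM in WT and 130, 129, 112 and 117 in KO. WT libraries 3 and 4 lay above every KO library and WT libraries 1 and 2 within the KO range. Its log2FC of -0.18 (standard error 0.10, -0.42 to 0.05) had the lowest adjusted p of all subunit genes, 0.427. Sdha, the flavoprotein that oxidises succinate (chr13:74322254-74350280), was the most abundant at 127 FPKM, with 486, 461, 547 and 536 CPM in WT and 500, 543, 450 and 440 in KO (log2FC -0.07, -0.30 to 0.16). The membrane anchors Sdhc and Sdhd had log2FC values of 0.05 and -0.02.

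Complex III passes electrons from ubiquinol to cytochrome c. Its 7 genes had a median log2FC of -0.0085, 3 positive and 4 negative. Uqcrq, a small accessory subunit (chr11:53427922-53430831), had the highest value. It was at 82.2, 77.6, 116 and 106 CPM in WT and 104.6, 106, 100.3 and 115 in KO. Every KO library lay inside the WT range (log2FC 0.16, -0.14 to 0.46). Cyc1, the cytochrome c1 subunit that hands electrons on (chr15:76343523-76345934), had the highest deposited level of the complex, 131 FPKM, and was at 144, 125, 175 and 196 CPM in WT and 152, 165, 145 and 153 in KO. The 4 KO libraries lay inside the WT range, and the log2FC was -0.06 (-0.36 to 0.25). With the length of the principal transcript Cyc1 was at 102.7, below Uqcrh (216), Uqcrc1 (123), Uqcrc2 (115) and Uqcrfs1 (103.7). The core subunits Uqcrc1 and Uqcrc2 stood at 0.01 and -0.04, and the Rieske iron-sulfur protein Uqcrfs1 at -0.05.

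Complex IV, cytochrome c oxidase, reduces oxygen. Its 11 genes had a median log2FC of -0.02, with 4 positive and 7 negative values. Cox4i1, the housekeeping form of the largest nuclear subunit, had the highest deposited level of all 54 genes, 586 FPKM. It was at 372, 357, 448 and 422 CPM in WT and 387, 422, 407 and 377 in KO, all 4 KO values inside the WT range, with a log2FC of -0.01 (-0.23 to 0.22). Cox8a, a small subunit of the membrane part (chr19:7215158-7217616), was at 179, 186, 257 and 251 CPM in WT and 227, 244, 245 and 273 in KO. The WT libraries fell into a low and a high pair with KO between and around the high pair, and the log2FC was 0.18 (-0.13 to 0.49, adjusted p = 0.558). Cox5a (chr9:57521232-57532424), which sits on the matrix side, was at 94.6, 74.8, 101 and 97.2 CPM in WT and 84.1, 88.4, 82.4 and 76.0 in KO. WT library 2 was the lowest of all 8, and the log2FC of -0.15 (-0.38 to 0.08) became -0.24 without that library (unadjusted p = 0.0151, adjusted 0.290).

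Cox7a2, the non-muscle form of another small subunit (chr9:79755241-79759853), was at 76.4, 88.6, 102 and 90.9 CPM in WT and 78.7, 88.1, 76.3 and 83.0 in KO, with a log2FC of -0.14 (-0.35 to 0.08). Without WT library 1 it was -0.20 (unadjusted p = 0.0432, adjusted 0.298). Cox7c (chr13:86044816-86046904) had only 540 reads in all 8 libraries, with 7.22, 4.11, 4.18 and 4.78 CPM in WT and 4.00, 4.67, 4.02 and 4.23 in KO. WT library 1 stood above the other 7, and the interval ran from -0.75 to 0.24. Ndufa4 and the other abundant subunits Cox6b1 and Cox6a1 had log2FC values of 0.09, -0.03 and -0.07.

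Complex V, ATP synthase, has a catalytic head (Atp5a1, Atp5b) and a central stalk (Atp5c1, Atp5d). It also has a membrane ring of c subunits (encoded by Atp5g1, Atp5g3 and a further gene) and further parts that hold these together. Of its 11 genes 10 were tested, 5 with positive and 5 with negative log2FC values and a median of 0.02. Atp5b, the catalytic beta subunit (chr10:128083273-128090391), had more reads than any other subunit gene, 164029 in all. It was at 1279, 1302, 1630 and 1636 CPM in WT and 1384, 1448, 1196 and 1300 in KO. WT libraries 3 and 4 exceeded every KO library and WT libraries 1 and 2 fell within the KO range (log2FC -0.13, -0.42 to 0.15). Atp5d, the delta subunit of the central stalk (chr10:80138632-80145818), was at 135, 136, 173 and 172 CPM in WT and 157, 175, 174 and 170 in KO, with a log2FC of 0.13 (-0.10 to 0.37). Atp5a1, the alpha subunit, stood at 0.05 and the c subunit gene Atp5g3 at -0.07.

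**Figure D2:**
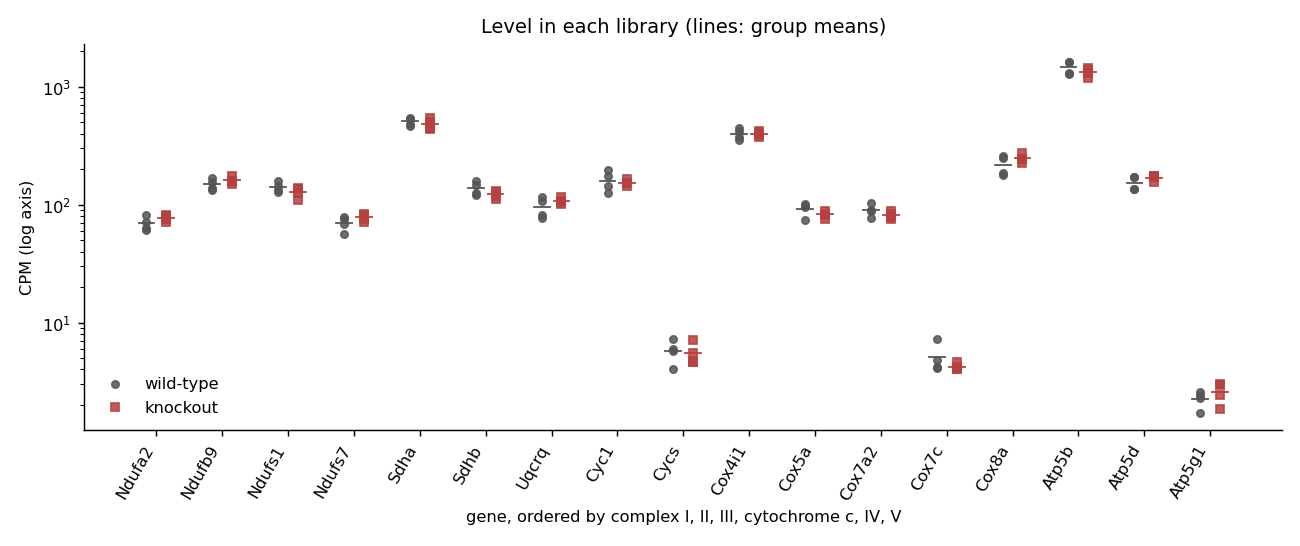
CPM of 17 subunit genes in each library (log axis), with WT as grey circles, KO as red squares and horizontal lines for the means of 4 libraries. The WT and KO points of every gene overlap, and the levels run from 1.72 CPM for Atp5g1 to 1636 CPM for Atp5b.

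The subunit genes were among the more abundant transcripts of the pad. Their median level was 65.3 FPKM (54 genes), and 50 of them were at 10 FPKM or more and above the 75th percentile of the tested genes. Besides Cox4i1, 5 genes exceeded 300 FPKM, namely Cox8a (425), Cox6b1 (418), Ndufa4 (376), Atp5b (328) and Cox6a1 (306). The order within this range depends on the exonic length that the file uses, which joins all transcripts of a gene. With the length of the principal transcript, Atp5b moved from 328 to 726 on the FPKM scale and Cox4i1 from 586 to 520, so their order was reversed. Ndufs7 moved from 43.0 to 97.6 and Sdhb from 57.9 to 114.

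The 4 genes under 10 FPKM were Cox7c (4.13), Cycs (1.65), Atp5l (0.973) and Atp5g1 (0.491). Reads were 50 bases long, and each coding sequence was therefore searched in windows of 50 bases. Exact copies on either strand were sought in the transcripts of other genes, pseudogenes included (GENCODE M21). For these 4 genes 99.7 to 100% of the coding windows had such a copy. Among the other 50 genes the median share was 0%, 35 were under 10%, and the highest were Uqcrb (72.9%), Atp5h (67.1%) and Cox5b (61.5%). Over the whole principal transcript the share was 84.8% for Atp5l, 53.0% for Cox7c, 28.5% for Cycs and 11.6% for Atp5g1. Most windows of Cycs and Atp5g1 thus had no copy, and Atp5h (50.5%) and Atp5o (50.3%) stood above both on that measure. For each gene the coding window held by the most other genes is shown, and not a typical one. It is 50 bases of coding sequence written 5′ to 3′ in lower case.
Cycs: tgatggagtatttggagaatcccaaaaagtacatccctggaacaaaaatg
Cox7c: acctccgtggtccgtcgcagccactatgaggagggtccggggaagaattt
Atp5g1: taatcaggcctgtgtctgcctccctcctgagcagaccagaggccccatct
Atp5l: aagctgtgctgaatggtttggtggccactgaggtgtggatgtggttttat
The Cycs window (coding bases 194 to 243) stood in transcripts of 6 other genes, 5 of them pseudogenes. The Cox7c window (31 to 80) and the Atp5g1 window (62 to 111) each stood in 2 pseudogenes, and the Atp5l window (215 to 264) in 9. A read from such a window cannot be placed on 1 gene by sequence alone. The sources used here do not give how the deposited counts treated reads with several placements, and the part of shared sequence in the low counts was not tested.

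**Figure D3:**
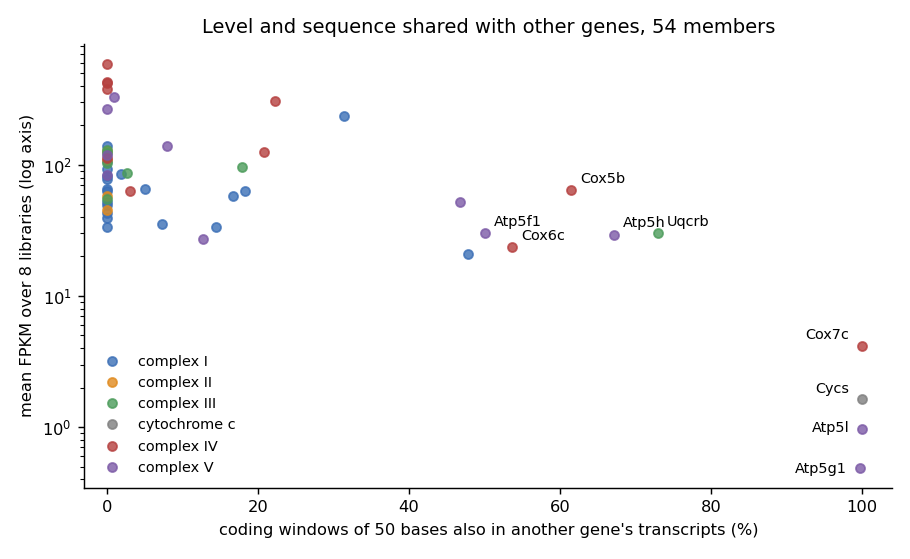
Mean FPKM over 8 libraries (log axis) of the 54 genes against the percentage of their 50-base coding windows that also occur in another gene's transcripts, coloured by complex. Cox7c, Cycs, Atp5l and Atp5g1 stand apart at the lower right, and the genes between 50 and 75% stand above 20 FPKM.

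Cycs, the mobile carrier that also takes part in apoptosis (chr6:50562563-50566538), was at 5.76, 5.94, 7.30 and 4.06 CPM in WT and 7.16, 4.67, 4.63 and 5.48 in KO, all inside the WT range (log2FC -0.07, -0.59 to 0.45). Atp5g1 (chr11:96068852-96075670) was at 2.41, 2.29, 1.72 and 2.55 CPM in WT and 1.85, 2.96, 2.996 and 2.45 in KO (log2FC 0.19, -0.34 to 0.72). Atp5l, a subunit near the dimer interface of ATP synthase (chr9:44913250-44920742), had 60 reads in all and was not tested. It was at 0.860, 0.529, 0.410 and 0.262 CPM in WT and 0.385, 0.445, 0.272 and 0.817 in KO.

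Of the 54 genes, 22 are overlapped by another gene model, and for 12 of these the other model held over 5% as many reads. Examples are Gm20388 over Cox4i1 and Gm20538 over Ndufb8 on the same strand, and Gabpa beside Atp5j on the opposite strand. The sources used here do not say whether the strand was used in counting, so reads in the overlaps cannot be assigned with certainty.

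The subunit genes varied together between mice of the same genotype. Among WT libraries, library 3 was the highest for 41 of 54 genes, and library 1 or 2 the lowest for 50. Over all 14800 genes tested, library 3 was the highest WT library for 25.9% (77.4% of the 53 tested subunit genes) and library 1 or 2 the lowest for 48.6%. In median deviation from the WT mean (log2), the 54 genes stood at -0.13, -0.14, 0.18 and 0.08 in WT libraries 1 to 4 and at -0.01, 0.09, -0.04 and -0.01 in KO libraries 1 to 4. In each of the 5 complexes WT libraries 1 and 2 lay below WT libraries 3 and 4, and library 3 was the highest. The place of library 3 depends on the scaling. In summed percentages of all counts, without TMM, WT library 4 was slightly above it in complex I (0.1850 against 0.1846) and complex V (0.357 against 0.354). Library 3 stayed the highest in complexes II, III and IV, and WT libraries 1 and 2 stayed below both in each complex. Complex III ran from -0.23 in library 2 to 0.24 in library 3, and complex V from -0.14 in library 1 to 0.16 in library 3. Adipocyte markers were also highest in WT library 3 (39872 CPM summed) and T and B cell markers in WT library 1 (247 CPM, against 56.7 to 97.6 in the other WT libraries), while KO library 2, the highest KO library for 33 of the 54 genes, had the lowest adipocyte marker sum of all 8 (27858 CPM). The part of tissue makeup in these orders was not tested.

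**Figure D4:**
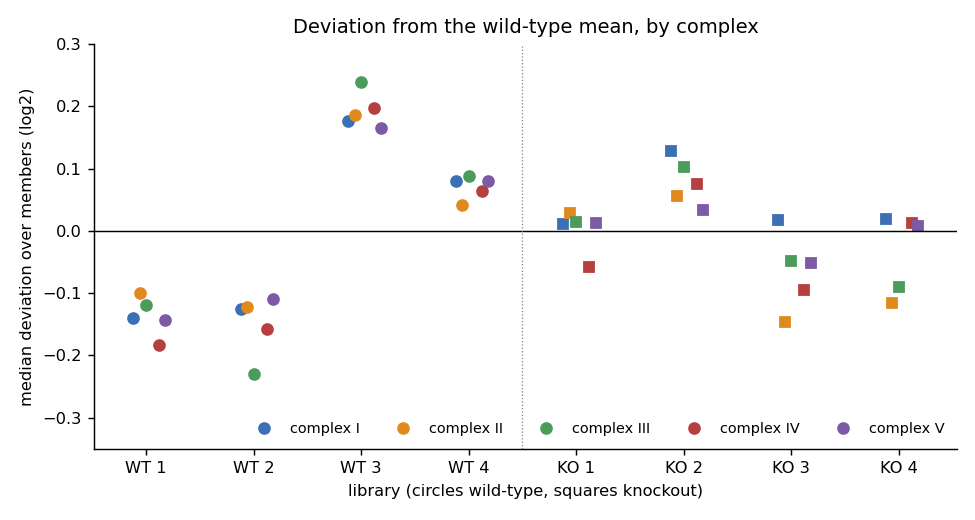
Median deviation from the WT mean (log2) of the subunit genes of each complex in each library, WT as circles and KO as squares, coloured by complex. The 5 complexes lie below 0 in WT libraries 1 and 2 and above 0 in WT libraries 3 and 4. The KO values lie between the WT extremes of their complex, except complex II in KO library 3 (-0.15).

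In TMM-scaled CPM, the KO libraries were closer to each other in these genes than the WT libraries were. The coefficient of variation over 4 libraries had a median of 12.95% in WT and 6.58% in KO, and it was larger in WT for 49 of the 53 tested genes (92.5%), beside 56.6% of all genes tested. All 4 KO libraries fell inside the WT range for 29 of the 54 genes, or 28 of the 53 tested (52.8%), beside 20.1% of all genes tested. Since the genes move together, these counts describe 4 mice per genotype and not 54 independent observations, and the difference in spread was not tested. Summed over the 54 genes the level was 7748, 7744, 9776 and 9220 CPM in WT (8622 ± 1037, SD, n = 4) and 8573, 9088, 8110 and 8377 CPM in KO (8537 ± 413). The KO sums lay inside the WT range. As a percentage of all counts, without TMM scaling, the sum was 0.854 ± 0.0712 in WT and 0.856 ± 0.0441 in KO. The SDs of the genotypes were closer on that measure, so the size of the difference in spread depends on the scaling.

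The transcripts of the mitochondrial genome, which encode the remaining subunits, had higher fitted levels in KO, without a call. Of the 13 genes 7 were tested, and all 7 had a positive log2FC, with a median of 0.53 and 0 calls by edgeR at an adjusted p of 0.05. At an unadjusted p under 0.05 there were 5, all higher in KO, beside 8.52% of all tested genes. WT library 3 was the highest WT library in mt-Nd1, mt-Nd2 and mt-Nd4 alike. The count therefore describes 4 mice per genotype and not 7 independent observations. DESeq2, which called 810 of all 14800 genes, called 5, namely mt-Nd1, mt-Nd2, mt-Nd4, mt-Co1 and mt-Cytb. The number under 0.05 ranged from 2 to 6 over the other settings. mt-Nd4, a proton-pumping subunit of complex I, was at 3862, 4160, 6623 and 3774 CPM in WT and 8710, 8415, 6616 and 7125 in KO (log2FC 0.74, 0.27 to 1.22, adjusted p = 0.150). WT library 3 stood with the lowest KO library, and the other 3 WT libraries stood below all KO libraries. mt-Co2, mt-Co3, mt-Atp6, mt-Atp8 and mt-Nd4l were listed at 0 in every library, so the mitochondrial sums leave them out.

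Summed per library, mitochondrial subunit transcripts were at 30628, 34878, 52028 and 30419 CPM in WT and 59995, 59655, 47315 and 55677 in KO, where WT library 3 exceeded KO library 3. Set against the nuclear sum of the same library, the ratio was 3.95, 4.504, 5.32 and 3.30 in WT (4.27 ± 0.857, SD, n = 4) and 6.998, 6.56, 5.83 and 6.65 in KO (6.51 ± 0.489), with no overlap. The ratio differed 1.52-fold between the means, and the nuclear sums differed 0.990-fold. By complex the KO mean ratio was 1.46 times the WT mean for complex I, 1.59 times for complex III and 1.44 times for complex IV. The mitochondrial part of these ratios was mt-Cytb alone for complex III and, with mt-Co2 and mt-Co3 at 0, mt-Co1 alone for complex IV. KO libraries 1 and 4, whose duct markers were at 46.1 and 51.7 CPM, had ratios of 6.998 and 6.65, and KO libraries 2 and 3, at 529 and 539 CPM, had 6.56 and 5.83. Summed endothelium markers (5 genes) also separated the genotypes, at 1352 to 1548 CPM in WT and 1078 to 1233 in KO. So, narrowly, did summed adipocyte markers (10 genes), at 32587 to 39872 CPM in WT and 27858 to 32426 in KO. The part of endothelial cells and adipocytes in the ratio was not tested. Libraries were made from polyadenylated RNA, and mitochondrial transcripts carry short tails, so the share captured can vary between RNA samples; no RNA quality value was used here, and its part was not tested.

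**Figure D5:**
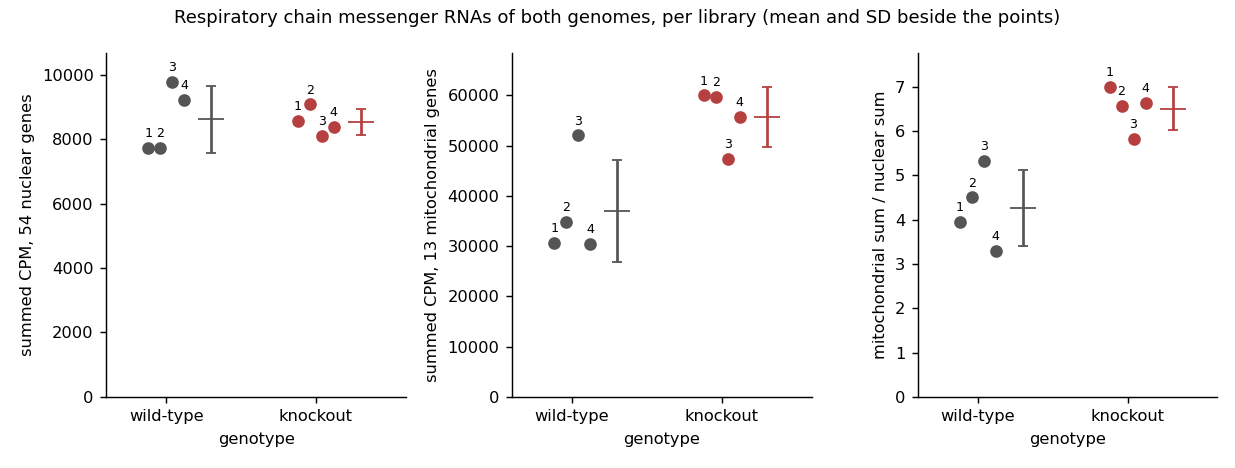
Summed CPM of the 54 nuclear subunit genes (left) and of the 13 mitochondrially encoded ones (middle), and their ratio (right), for each library (numbered points), with mean and SD of 4 libraries beside them; axes start at 0. Nuclear sums overlap between genotypes, mitochondrial sums overlap at library 3 of each, and the ratios do not overlap. Of the mitochondrial genes, mt-Co2, mt-Co3, mt-Atp6, mt-Atp8 and mt-Nd4l were at 0 in every library and add nothing to the sums.

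Other nuclear genes of the same pathway showed no call by edgeR either. Of 25 further genes tested, for subunits and for associated proteins such as Atpif1, 18 had a positive and 7 a negative log2FC (median 0.07). Atpif1, an inhibitor of ATP synthase, was at 21.2, 28.4, 28.1 and 27.4 CPM in WT and 29.6, 40.2, 41.3 and 34.7 in KO, all KO above all WT, with a log2FC of 0.47 and an adjusted p of 0.150. Ndufab1, an acyl carrier protein of complex I and of fatty acid synthesis, was at 31.8, 32.3, 39.1 and 32.7 CPM in WT and 25.9, 29.6, 23.6 and 27.6 in KO, all KO below all WT, with a log2FC of -0.35 and an adjusted p of 0.162. At an unadjusted p under 0.05 these were the 2 of 25 that passed, beside 16.2% of all genes tested, and DESeq2 called Atpif1. Of 5 tested alternative forms of subunits none was called by edgeR. The lowest adjusted p was 0.308, for Cox6b2 (log2FC 0.85, unadjusted p = 0.0493), and the other 4 were above an unadjusted p of 0.05. Cox6b2, a testis form, was at 3.001, 5.33, 6.26 and 1.83 CPM in KO and at 2.03 to 2.82 in WT. The 2 KO libraries highest in Cox6b2 were those with 529 and 539 CPM of duct markers, and the part of duct cells in it was not tested.

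Assembly factors, which build the complexes and are not part of them, had a median log2FC of 0.02 over 40 tested genes, 21 positive and 19 negative, with 0 calls. The 2 at an unadjusted p under 0.05 were Ndufaf4, a complex I assembly factor (log2FC -0.21, adjusted p = 0.252), and Cox15, needed for the heme a of complex IV (-0.20, adjusted p = 0.290). Over 17 genes of the outer membrane, import machinery and carriers the median was -0.01, with 8 positive and 9 negative values and 0 at an unadjusted p under 0.05. The channel Vdac1 had a log2FC of 0.19 and the phosphate carrier Slc25a3 of -0.11.

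Of 15 tested regulators of respiratory genes 5 had a positive and 10 a negative log2FC (median -0.07), and 0 were called by edgeR. Gabpa, which encodes the DNA-binding subunit of GABP, was at 63.4, 64.7, 56.9 and 56.6 CPM in WT and 49.7, 46.8, 50.4 and 49.9 in KO, all KO below all WT (log2FC -0.30, -0.46 to -0.14, adjusted p = 0.119). Atp5j, which has a start at the other end of the same stretch and a further start elsewhere, had a log2FC of -0.01 (-0.17 to 0.15), with overlapping libraries. Nrip1, a corepressor of oxidative genes in fat, was at 147, 128, 144 and 184 CPM in WT and 106, 119, 81.5 and 87.5 in KO (log2FC -0.62, adjusted p = 0.119). Esrrg, an estrogen-related receptor, had a log2FC of 1.65 (adjusted p = 0.171), with 1.46, 5.71, 7.70 and 3.03 CPM in KO libraries 1 to 4, highest in the 2 libraries that were also highest in duct markers. The part of duct cells in its level was not tested. These 3 regulators, of 15 tested, were the ones at an unadjusted p under 0.05, beside 16.2% of all genes tested. They were also called by DESeq2, which called 810 of all 14800 genes. Gabpa and Nrip1 had every KO library below every WT library, as did 4.54% of all genes tested. Ppargc1a, the coactivator that raises mitochondrial gene expression, had a log2FC of -0.08 with a wide interval (-0.76 to 0.61), and Nrf1 one of -0.20 (-0.46 to 0.06).

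Subunit transcripts are short, and short genes as a class stood slightly higher in KO. Among tested protein-coding genes outside the set, those of 1000 exonic bases or fewer had a median log2FC of 0.07 (470 genes), those over 1000 to 2000 bases 0.06 and longer ones -0.03. The 17 subunit genes of 1000 bases or fewer had a median of -0.0085 and the 17 of over 1000 to 2000 bases 0.01. The 19 subunit genes over 2000 bases had a median of -0.01. In both shorter classes the median of the subunit genes lay below that of the class and in the longest class above it, single short genes such as Cox8a (0.18) and Ndufa2 (0.16) lay above it, and these differences were not tested.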

How the data were processed

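The authors deposited 1 table that, per the file headers, holds a read count and an FPKM value for each gene and library. The counts are whole numbers and were used as deposited. Each of the 158499 deposited FPKM values above 0 equals the count per kilobase of exonic length, scaled to the library's counted reads, within 0.1%. Per the labels' protocols, polyadenylated RNA was sequenced from stranded libraries as single reads of 50 cycles. Novoalign 2.8.1, Picard and mm10 stand in the submitters' processing notes without their roles, and the sources used here give no counting program, annotation or strand setting. Groups and numbers come from the sample titles.

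Genes were kept by filterByExpr (minimum count 10), scaled by TMM and tested with the quasi-likelihood F test of edgeR 4.0.16 in R 4.3.3, with no covariate and Benjamini-Hochberg adjustment over 14800 genes. The standard error and 95% interval were derived from the same fit, and P-values measure the spread between these mice. The script was tested on simulated data. No library pair agreed within sampling noise (lowest chi-square per gene 19.7). Values in all libraries are given for the 2 genes of lowest p and the most abundant gene of each complex and for the 3 highest and 3 lowest fold changes, and from other pathway lists for up to 3 genes of lowest p. The members, lists and naming rule were chosen with earlier results of these data known; 256 of 258 listed symbols gave a gene (Tomm20 was not matched). Alternatives were other scalings (RLE, upper quartile, library size), other filters, DESeq2 1.42.0, limma-voom (limma 3.58.1), edgeR with robust dispersion, a block for the replicate number, each library left out, and, added after seeing the data, KO libraries 2 and 3 left out and the length of the principal transcript.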

Additional observations from a re-analysis of the deposited data

Results flagged for a closer look

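Among 50 groups of 4 values checked for a value that stands apart, 1 was found, where chance gives about 1 in 20. The summed level of the 20 complex I genes in KO library 2 was 1900 CPM, against 1740 to 1760 CPM in the other 3 KO libraries. Its gap to the nearest library was 0.846 of the range of the group. The value lies within the WT range of 1573 to 1972 CPM.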

How the results depend on the processing

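The count of subunit genes called stayed at 0 in each of the 18 alternatives run, and their median log2FC ranged from -0.04 to 0.07, changing sign with the scaling, the tool and the library left out. The lowest adjusted p of a subunit gene over all settings was 0.229. The number of genes called over the whole table was less stable. Against 60 it was 810 with DESeq2 and 3 without KO libraries 2 and 3, and from 0 (without KO library 2) to 290 (without KO library 1) with 1 library left out. With the replicate number as a block it was 14; same-numbered libraries did not deviate together (correlations 0.184, -0.106, -0.254 and 0.0577), so the numbers do not show a pairing. The log2FC of Atg3 was -0.73 with the block (adjusted p = 0.111), -0.77 without KO libraries 2 and 3 (adjusted p = 0.0989), and from -0.78 to -0.69 with 1 library left out, where the call was lost without KO library 2 or WT library 1 or 4. No scaling moved the median of all genes by 0.1. The log2FC of Cycs ranged from -0.22 (without KO library 1) to 0.06 (without WT library 3) with 1 library left out, was above 0 also without KO library 2 or 3 alone (0.0044 and 0.0088), and was 0.14 without both. Depth limits Cycs, Cox7c, Atp5g1 and Atp5l, with 657, 540, 286 and 60 reads in all 8 libraries.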
